A study of Mus musculus with 5 samples.

Results

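Zbtb genes encode zinc finger proteins with an amino-terminal BTB (also called POZ) domain, and the genes described here are all those whose symbol starts with Zbtb followed by a digit. The symbol rule found 43 genes, of which 42 are protein-coding, among 49997 RefSeq mouse genes and 21900 protein-coding ones. Of the 43, the noncoding Zbtb11os1 and the tRNA ligase cofactor gene Zbtb8os share the symbol and not the domain. One gene is called Zbtb47 in the CCT3 table and Zfp651 in the other tables and in RefSeq, and only peaks under the first name were counted for it by listed gene, while counts by position include its peak listed as Zfp651.

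The study mapped the RNA contacts of a pair of proteins in the mouse cell line GC-2spd(ts), whose labels give spermatocyte cells as the cell type. The proteins were PABPC1, which coats the poly(A) tail of cytoplasmic mRNA, and CCT3, a subunit of the ring-shaped chaperonin that folds actin and tubulin. In eCLIP the RNA crosslinked to a protein is trimmed with RNase I, pulled down with an antibody and sequenced beside an input made from the same lysate. The 5 samples were 1 PABPC1 immunoprecipitation with its input, and 2 CCT3 immunoprecipitations, titled CCT3 and CCT3-2, with 1 input. No sample carried a treatment or an altered genotype, all came from 1 cell line, and the line's derivation is not given in the labels.

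The authors' 3 peak lists held 14092 PABPC1, 10916 CCT3 and 18650 CCT3-2 peaks, of which 24, 130 and 209 named a Zbtb gene. PABPC1 has 1 list, and CCT3 and CCT3-2 carry the same library name, so no comparison below has a replicate check and no p across samples was computed. The depth behind a peak is unknown, as read totals were not analysed here. A peak list is not a measure of RNA level, and more RNA of a gene and more binding per RNA cannot be told apart from the number of its peaks. RefSeq spans of 9 of 10 spermatocyte marker genes held a PABPC1 peak, among them Sycp3, Dmc1 and Ddx4 (5 of 10 by the gene the list names), beside 24.4% of all protein-coding genes. So did those of 5 of 5 spermatid, 4 of 5 Sertoli, 4 of 5 Leydig and 5 of 5 fibroblast marker genes, and 1 of 4 for undifferentiated spermatogonia. Spans of 1 of 5 Sertoli marker genes (Sox9) held a CCT3 peak, beside 9.21% of all protein-coding genes. The spans of the other marker sets held no CCT3 peak. Intervals on shares are Wilson 95% intervals and cover counting error only, neighbouring peaks are not independent, and PCR reads without molecular identifiers are not independent molecules.

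In a BTB zinc finger protein the BTB domain forms dimers and recruits corepressors such as NCOR and BCOR or the ubiquitin ligase scaffold CUL3, and the carboxy-terminal zinc fingers bind DNA. Many members are transcriptional repressors with roles in lymphocyte, neural or germ cell development. In the testis the best known is Zbtb16, whose product PLZF maintains undifferentiated spermatogonia. Several members, including Zbtb9, Zbtb34, Zbtb39 and Zbtb43, have most of their coding sequence in the last of few exons, which is where many of the peaks below lay.

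A few CCT3 peaks reached the start of a Zbtb transcript, where RefSeq's promoter table (GRCm38.p6, the patch release of mm10) gives sequence for the first 50 transcribed bases. The lines below show transcript positions 21 to 50, 5′ to 3′ on the minus strand, because these are bases inside a peak that can be read directly. Capitals mark the part covered by the peak.
Zbtb34, chr2:33431275-33431304, CCT3 peak 33431228 to 33431318: GGGCCTGGCGCCGGCGGCGGCGGCGGCGGA
Zbtb21, chr16:97962573-97962602, CCT3 peak 97962564 to 97962600: atGGAATCACAGCGGCAGTGGAGGCTGCGG
Zbtb43, chr2:33468483-33468512, CCT3-2 peak 33468436 to 33468516: TGGCGGCGGAGAATAAGGCCTTGGTACGGC
Zbtb49, chr5:38220405-38220434, CCT3-2 peak 38220323 to 38220410: cgagggggcgttgtcggaatggttCCGAGG
The log2 folds over input of these peaks, all in the authors' promoter class, were 3.33, 3.59, 3.75 and 3.80. Their −log10 p values were 4.64, 4.64, 2.70 and 2.70. The CCT3-2 peaks of Zbtb43 and Zbtb49 thus lay under the minimum of 3 of the other lists, and no CCT3 peak overlapped them. The Zbtb34 stretch holds 28 G or C bases of 30, that of Zbtb49 holds 20, and those of Zbtb21 and Zbtb43 hold 19 each. CCT3-2 peaks also covered the windows of Zbtb34 and Zbtb21. Sequences of peaks outside these windows were not analysed here.

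CCT3 peaks named most Zbtb genes, and PABPC1 peaks named fewer. Of the 42 protein-coding members, 25 (59.5%, interval 44.5 to 73.0%) were named for at least 1 CCT3 peak, against a background of 9.34% of all protein-coding genes. The CCT3-2 list named 29 of 42 (69.0%, 54.0 to 80.9%), against 12.0% of all. The PABPC1 list named 10 of 42 (23.8%, 13.5 to 38.5%), a share near its background of 22.6%. The Zfp genes, a family of 396 zinc finger genes, also had a CCT3 share above the background, at 161 genes (40.7%, 35.9 to 45.6%), whereas 57 (14.4%, 11.3 to 18.2%) had a PABPC1 peak. The Zbtb and Zfp intervals for CCT3 meet only between 44.5 and 45.6%, and the difference between the families was not tested.

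**Figure D1:**
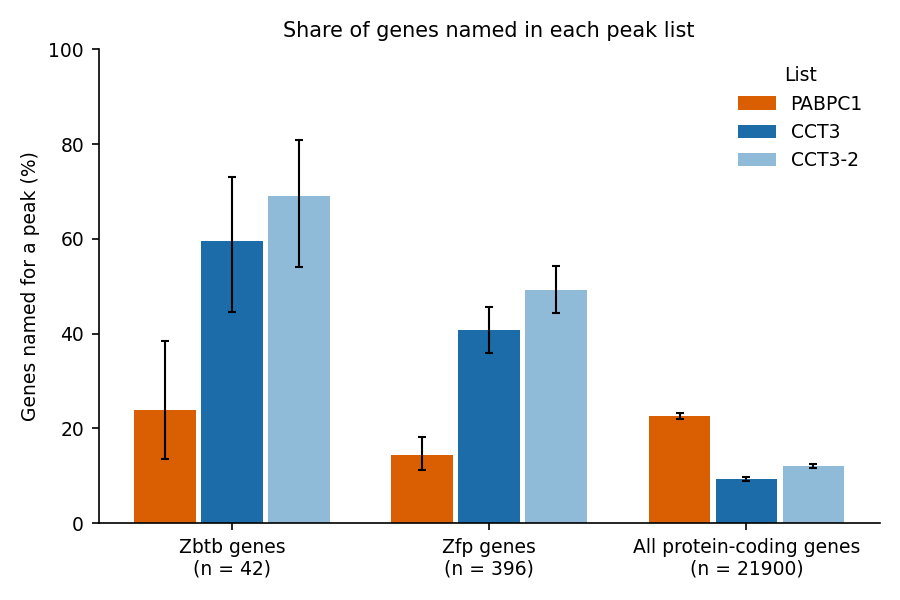
Percent of protein-coding genes named for at least 1 peak (vertical axis) in the PABPC1, CCT3 and CCT3-2 lists, for 42 Zbtb, 396 Zfp and all 21900 genes, with Wilson 95% intervals. The Zbtb bars stand at 23.8%, 59.5% and 69.0%, and the bars of all genes at 22.6%, 9.34% and 12.0%.

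The tables name the gene whose transcript start is nearest, which is not always the gene that holds the peak. Counted by the RefSeq gene span that holds the peak, 28 members had a CCT3 peak (66.7%, background 9.21%), 33 a CCT3-2 peak (78.6%, background 11.8%) and 11 a PABPC1 peak (26.2%, background 24.4%). The shares therefore moved little, but the genes behind them changed in places, as given for each gene below. The 28 and the 33 include Zbtb46, whose CCT3-2 peak lay on the strand opposite to the gene. The median RefSeq span was 18205 bases for the 28 members with a CCT3 peak (range 2365 to 758704) and 17687 bases for the 14 without (2309 to 328387), introns included.

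CCT3 peaks were spread unevenly over the 25 members. The 5 members with 10 or more peaks (Zbtb21, Zbtb9, Zbtb1, Zbtb39 and Zbtb10) held 64 of the 130 peaks (49.2%), and 9 members had a single peak. Of all 2213 genes named in the CCT3 list, 322 (14.6%) had 10 or more peaks, beside 20.0% of the named Zbtb genes. The median log2 fold over input of the 130 peaks was 4.05, equal to that of all CCT3 peaks, with a range of 3.05 to 6.21. Folds and p of peaks are the authors' own values, and the PABPC1 and CCT3 lists start at a log2 fold and a −log10 p of 3.

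**Figure D2:**
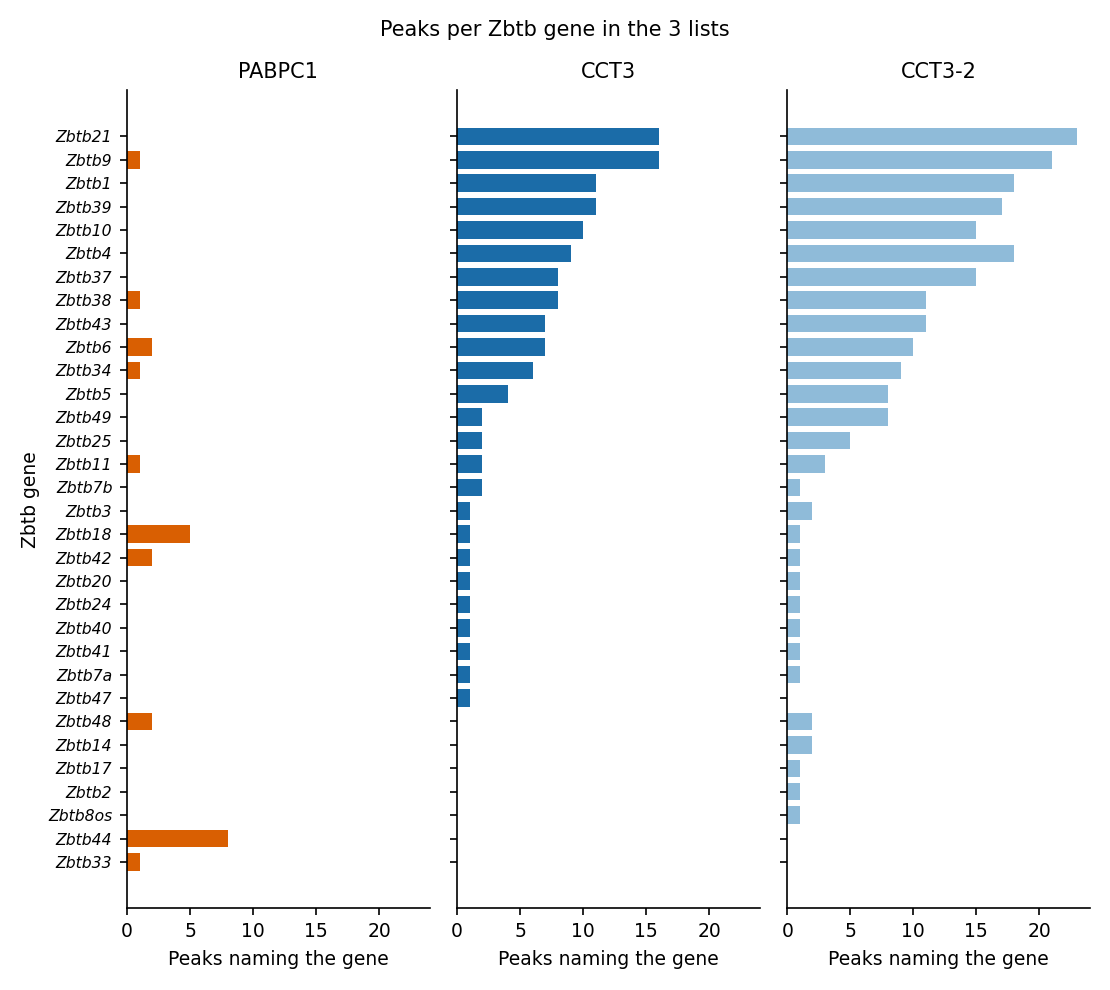
Number of peaks naming each of the 32 Zbtb genes with a peak (horizontal axis), in the PABPC1, CCT3 and CCT3-2 lists, ordered by CCT3 peaks. Zbtb21 and Zbtb9 lead with 16 CCT3 peaks each, and Zbtb44 has 8 PABPC1 peaks and none for CCT3.

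By listed gene Zbtb21 and Zbtb9 had the most CCT3 peaks, 16 each, which placed them level at rank 116 of the 2213 genes. By position Zbtb5 had 18, Zbtb21 16 and Zbtb9 14. Zbtb21 encodes a transcriptional repressor and lies on the minus strand of chromosome 16 at 97945795 to 97962627. Of its CCT3 peaks, 15 lay in exon 3 of 3, between 97950043 and 97952796, and the last was the start peak printed above. Their log2 folds ran from 3.42 to 6.12 with a median of 4.53, the highest at 97950474 to 97950513 (−log10 p 14.6). All 16 overlapped a CCT3-2 peak, and the gene had 23 peaks in that list and none for PABPC1.

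Zbtb9, a short gene of 2 exons, lies on the plus strand of chromosome 17 at 26973179 to 26976203. Its CCT3 peaks were scattered from exon 2 to the gene's end and covered 21.6% of its span. It had 7 CCT3 peaks in exon 2 and 9 in the 3′ UTR, between 26974061 and 26976377, with log2 folds of 3.15 to 6.21 and a median of 4.28. The highest, at 26976168 to 26976271 (−log10 p 15.4), was the highest fold of any CCT3 peak naming a Zbtb gene, and its midpoint lay 16 bases beyond the RefSeq end. In the CCT3-2 list Zbtb9 had 21 peaks, the highest at 26976133 to 26976273 with a log2 fold of 6.51. Most genes of the family had their CCT3 peaks far from the 3′ end, and Zbtb9 is the member in which 6 of them lay within 500 bases of it.

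Zbtb1, which is required for lymphoid development, had 11 CCT3 peaks at 76370670 to 76387150 of chromosome 12. Of these, 9 lay in exon 2 of 2 and 2 in the 5′ UTR. The strongest reached a log2 fold of 6.12 at 76386636 to 76386711 (−log10 p 12.4), and the others ran from 3.74 to 4.74. A further 2 peaks in its span, in the 3′ UTR at log2 folds of 3.07 and 4.40, were listed under the neighbouring Hspa2. Zbtb39, on chromosome 10, had 11 peaks at 127741546 to 127744445, 6 of them in exon 2 of 2, 4 in the 3′ UTR and 1 in the 5′ UTR, with log2 folds of 3.68 to 5.11. The last listed peak stopped 9805 bases before the RefSeq end of Zbtb1 and 2904 before that of Zbtb39. With the peaks under Hspa2 the distance in Zbtb1 was 6507 bases.

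Zbtb10, which encodes a repressor of Sp transcription factor genes, differed in that its 10 peaks were split between exons. On chromosome 3, 4 peaks lay at 9250954 to 9251781 in the 5′ UTR and exon 1 of 6, 5 at 9264615 to 9265290 in exon 2, and 1 at 9280859 to 9281000 in exon 6. The highest log2 fold, 5.51, was in exon 2 (9265005 to 9265097, −log10 p 20.3). Its 4 peaks at the start had log2 folds of 4.15 to 4.81, with −log10 p of 10.5 to 23.2.

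Among the members with fewer peaks, Zbtb43 and Zbtb5 carried folds as high. Zbtb43, whose product remodels Z-DNA in prospermatogonia, had 7 CCT3 peaks, all in exon 2 of 2 at 33453714 to 33454766 of chromosome 2, with log2 folds of 3.13 to 6.09. Its highest peak (33453988 to 33454050, −log10 p 15.0) had a CCT3-2 counterpart at 33453984 to 33454047 with a log2 fold of 6.26. Zbtb5, which encodes a repressor of the cell cycle inhibitor gene Cdkn1a, had 4 listed peaks on chromosome 4. By listed gene it was the member with intronic peaks in the CCT3 list, at 45008221 to 45008317 (log2 fold 6.16, −log10 p 15.4) and 45007131 to 45007231 (4.43), and its other 2, in the 5′ UTR, had log2 folds of 3.55 and 4.05.

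The methyl-CpG binding members Zbtb4 and Zbtb38 had 9 and 8 CCT3 peaks. Those of Zbtb4 were 4 in exon 4 of 4, 1 in exon 3, 1 at its start and 3 in the 3′ UTR at 69778316 to 69779035 of chromosome 11, where a peak of 406 bases, the widest of the family, had a log2 fold of 5.26 (−log10 p 21.1). Zbtb38 had 7 in exon 6 of 6 at 96685466 to 96688752 of chromosome 9, with log2 folds of 3.17 to 5.40, and 1 in the promoter class that by position lay in E030011O05Rik. The third methyl-CpG binding member, Zbtb33 (Kaiso), had none in either CCT3 list.

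Of the remaining members, Zbtb37 had 8 CCT3 peaks (highest log2 fold 4.62), Zbtb6 had 7 (5.30) and Zbtb34 had 6 (5.61). Of the 7 listed for Zbtb6, 4 lay in the adjacent Zbtb26 by position, the highest among them. The span of Zbtb6 itself held 3, up to a log2 fold of 4.17. Zbtb7b, the determinant of the CD4 T cell lineage, had 2 (4.14), as did Zbtb11 (4.29), Zbtb25 (4.23) and Zbtb49 (3.72). Single peaks named Zbtb42 (4.09), Zbtb3 (4.02), Zbtb7a (3.80), Zbtb20 (3.48), Zbtb41 (3.43), Zbtb24 (3.32), Zbtb40 (3.19), Zbtb18 (3.18) and Zbtb47 (3.05). Of these single peaks, 2 reached a log2 fold of 4. Zbtb20 is a single-peak gene only by listed gene, with 12 CCT3 peaks up to a log2 fold of 5.05 by position.

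**Figure D3:**
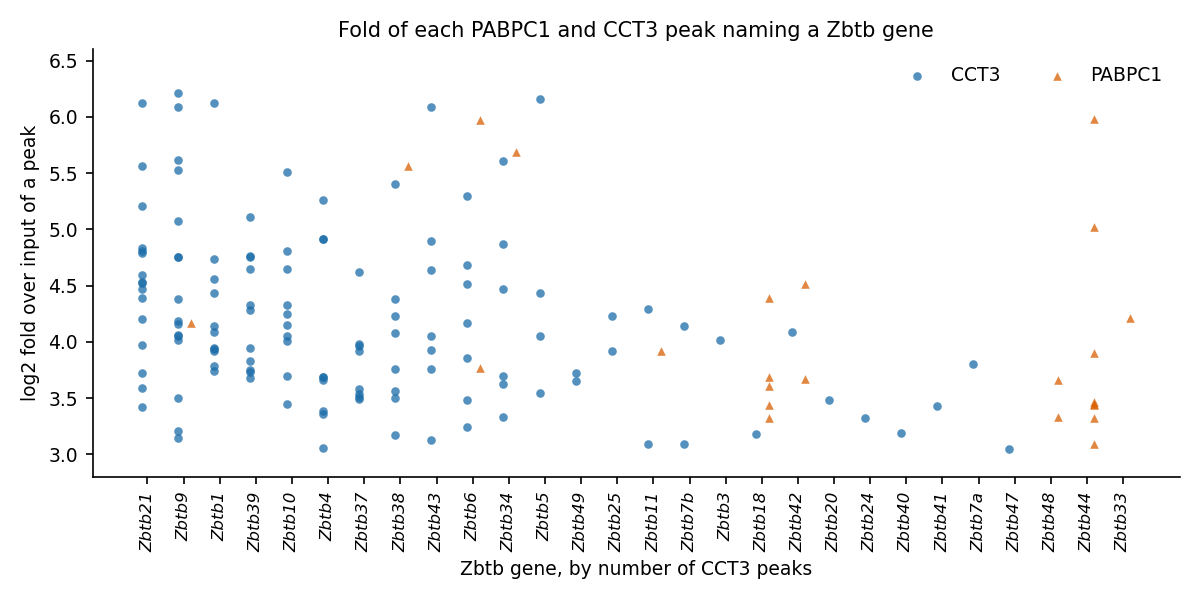
The log2 fold over input (vertical axis) of each CCT3 peak (circles) and PABPC1 peak (triangles) naming a Zbtb gene, with genes ordered by their number of CCT3 peaks. CCT3 peaks reach 6.21 in Zbtb9, and the 9 genes with 1 peak lie between 3.05 and 4.09.

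The deposited annotation put most CCT3 peaks of the family in coding or other exons outside the UTRs and few in introns. The class named other exon held 91 of the 130 peaks (70.0%, 61.6 to 77.2%), beside 47.9% of all CCT3 peaks and 64.6% of those naming a Zfp gene. The 3′ UTR held 26 (20.0%, 14.0 to 27.7%), beside 18.0% of all, and the 5′ UTR 7 and the promoter class 4. Introns held 2 (1.54%, 0.423 to 5.44%), beside 29.6% of all CCT3 peaks and 5.35% of Zfp ones. These shares describe the lists, and the peaks of a gene are not independent of each other.

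Within the exon class, 72 of 91 peaks (79.1%, 69.7 to 86.2%) lay in the last exon of the transcript named by the annotation, the same percent as for the Zfp genes and beside 51.6% of all CCT3 peaks of this class. The transcript had only 2 exons for 43 of the 91 (47.3%), beside 8.60% of Zfp and 14.8% of all. At least 1 exon peak of this class was present in 21 of the 25 members, and in 11 it was the class of every CCT3 peak. Some of the 11, such as Zbtb3 and Zbtb24, had a single CCT3 peak. A 3′ UTR peak was present in 8 of the 25 members, led by Zbtb9 with 9, Zbtb37 with 5 and Zbtb39 with 4. The same counts over all genes in the CCT3 list are not given here, so these numbers only describe the family.

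**Figure D4:**
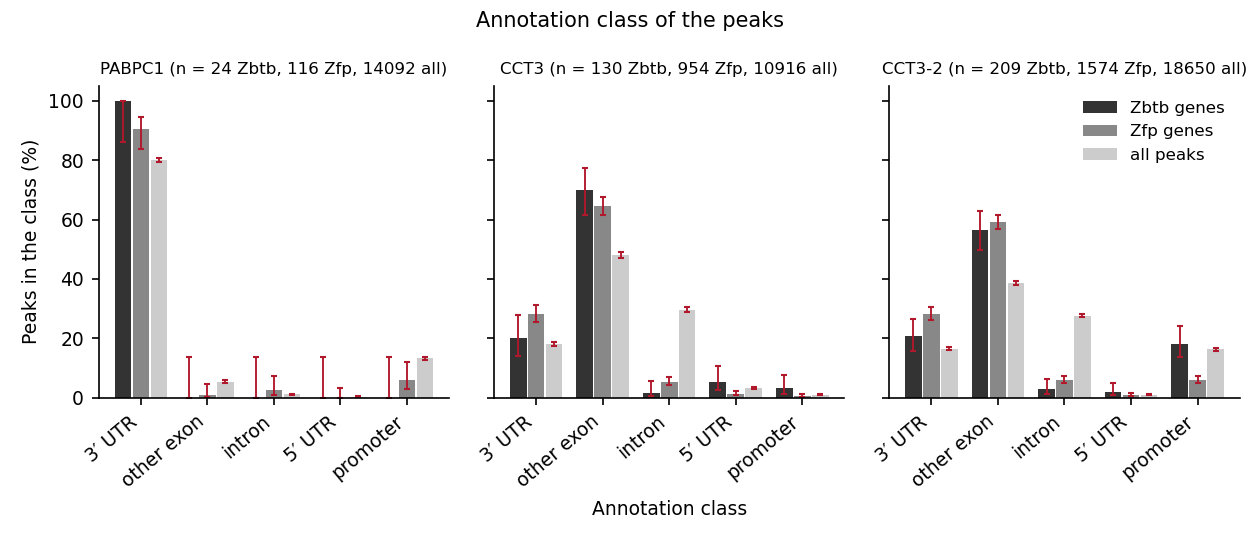
Percent of peaks in each annotation class (vertical axis) for peaks naming Zbtb genes, Zfp genes and all peaks, in the 3 lists, with Wilson 95% intervals in red. All 24 PABPC1 peaks naming Zbtb genes are in the 3′ UTR class, though 5 of them lie in another gene, and 70.0% of the CCT3 ones are in other exons.

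PABPC1 peaks naming a Zbtb gene were all classed as 3′ UTR by the deposited annotation, 24 of 24 (100%, 86.2 to 100%), beside 79.9% of all PABPC1 peaks and 90.5% of those naming a Zfp gene. Of the 24, 5 lay in genes other than the one named, and counted by position the 3′ UTR share was 92.0% of 25 peaks, since 2 in Zbtb32 were in the promoter class. These 2 were listed under Mir3569, 413 and 457 bases from its start. Their midpoints lay 134 and 163 bases from the 3′ end of Zbtb32, on its strand, and not at its promoter. The median log2 fold of the 24 was 3.73, with a range of 3.09 to 5.98, below the median of 4.19 of all PABPC1 peaks. By gene span, exonic PABPC1 peaks in members were as near the 3′ end as those of other genes. Their midpoints lay within 500 bases of it in 12 of 23 (52.2%, 33.0 to 70.8%), beside 51.1% of all, and within 100 bases in 4 (17.4%), beside 17.1%. Peaks in the promoter class, such as the 2 in Zbtb32, are left out of these counts. For CCT3 the corresponding count within 500 bases was 7 of 149 (4.70%, 2.29 to 9.38%), beside 2.14% of all.

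Zbtb44 had the most PABPC1 peaks, 8, and none in either CCT3 list. The gene runs on the plus strand of chromosome 9 from 31029720 to 31075885. A group of 6 peaks lay at 31068888 to 31070205 with log2 folds of 3.09 to 3.90, and 2 lay near the 3′ end at 31075727 to 31075799 (5.98, −log10 p 28.9) and 31075836 to 31075865 (5.02, −log10 p 8.57). The midpoints of the latter were 122 and 35 bases from the RefSeq end. The high folds of this gene were thus those at its end, whereas the midpoints of the group of 6 lay 5691 to 6980 bases from it.

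Zbtb18, a repressor needed for cortical neuron development, had 5 PABPC1 peaks at 177449038 to 177450644 of chromosome 1, with log2 folds of 3.32 to 4.39. The highest was 298 bases from the gene's end (177450439 to 177450493, −log10 p 12.3). Its close relative Zbtb42 had 2 at 112682501 to 112682666 of chromosome 12 (3.67 and 4.51), 226 and 103 bases from the end. Single PABPC1 peaks named Zbtb34 (33406110 to 33406209, 5.69), Zbtb38 (96683087 to 96683153, 5.56), Zbtb9 (26976106 to 26976197, 4.17) and Zbtb11 (56008806 to 56008860, 3.92). Their midpoints lay 51, 353, 52 and 80 bases from the 3′ end of the gene.

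The remaining 5 PABPC1 peaks did not lie in the gene they named. The 2 listed for Zbtb6 (3.77 and 5.97, at 37432469 to 37432613 of chromosome 2) lay in the adjacent member Zbtb26, 316 and 405 bases from its 3′ end. The 2 listed for Zbtb48, which encodes a telomere-binding protein, lay in Klhl21 on the opposite strand (3.33 and 3.66). The peak listed for Zbtb33 lay in Tmem255a, also on the opposite strand (4.21). In turn, 4 PABPC1 peaks in the spans of members were listed under microRNA or neighbouring genes, 1 in Zbtb7a (under Pias4, 5.49), 1 in Zbtb20 (under Mir568, 4.65) and 2 in Zbtb32 (under Mir3569, 4.22 and 4.43).

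Both proteins named 7 of the 42 protein-coding members (background 3.16% of protein-coding genes), which were Zbtb6, Zbtb9, Zbtb11, Zbtb18, Zbtb34, Zbtb38 and Zbtb42. The CCT3 list alone named 25 of the 42 and the PABPC1 list 10. A high share for CCT3 by itself raises the number named by both, and an excess beyond that was not tested. By gene span there were 9 (background 3.22%), with Zbtb7a, Zbtb20 and Zbtb26 in and Zbtb6 out. In 6 of the 7 listed members no peak of one protein overlapped a peak of the other. The smallest gap was 1447 bases in Zbtb18, 1740 in Zbtb42, 2313 in Zbtb38, 4792 in Zbtb34 and 17730 in Zbtb11, introns included. In Zbtb6 the gap of 3032 bases runs between genes, since its PABPC1 peaks lay in Zbtb26, which by span had 4 CCT3 peaks and a gap of 3109.

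Zbtb9 was the member with an overlap of the 2 proteins' peaks. Its highest CCT3 peak, given above, shared 30 bases with the PABPC1 peak at 26976106 to 26976197. The CCT3-2 peak there shared 65 bases with it. Thus 1 of 130 CCT3 peaks of the family (0.769%, 0.136 to 4.23%) overlapped a PABPC1 peak, beside 0.669% of all CCT3 peaks. In Zbtb20, counted by span, a CCT3 peak came within 58 bases of the PABPC1 peak in the 3′ UTR.

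**Figure D5:**
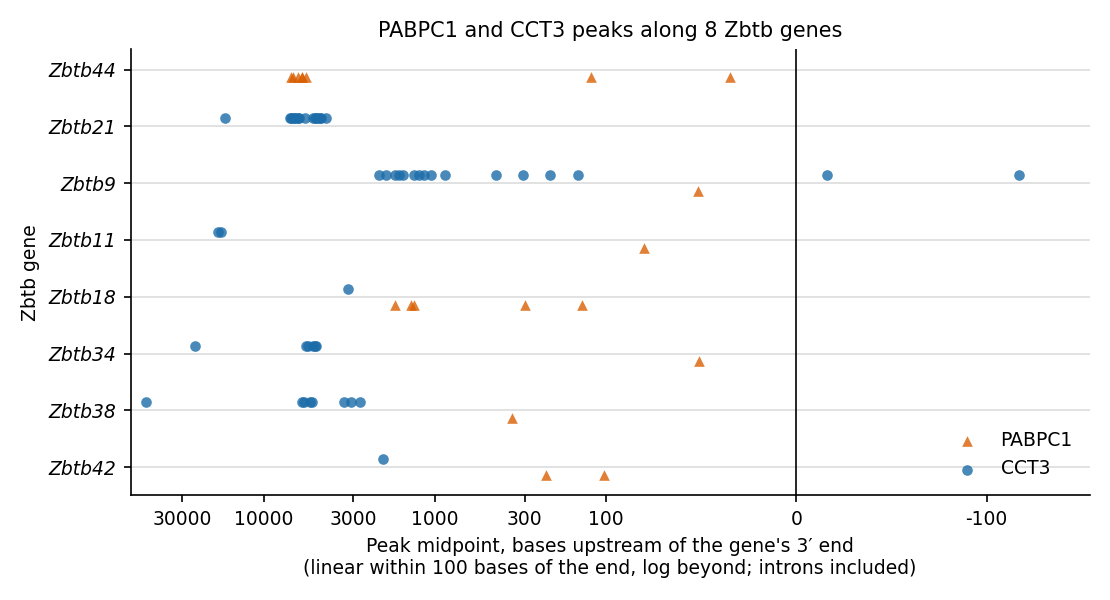
Midpoints of CCT3 peaks (circles) and PABPC1 peaks (triangles) by bases upstream of the RefSeq 3′ end (horizontal axis, linear within 100 bases and logarithmic beyond, introns included), for Zbtb44, Zbtb21 and 6 members named for both proteins. Zbtb6 is left out because its PABPC1 peaks lie in Zbtb26. PABPC1 peaks lie nearer the end than CCT3 peaks in each of the 6 except Zbtb9, where 2 CCT3 midpoints lie past it.

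The 2 CCT3 lists named largely the same Zbtb genes, which for samples sharing a library name is not an independent repeat. They shared 24 members, 16 of them with more peaks in CCT3-2, 7 with equal numbers and 1 (Zbtb7b) with fewer. A CCT3-2 peak overlapped 120 of the 130 CCT3 peaks (92.3%, 86.4 to 95.8%), beside 89.9% of all, and a CCT3 peak overlapped 145 of the 209 CCT3-2 peaks (69.4%). In 16 of the 25 members every CCT3 peak had such a counterpart, and the single peak of Zbtb24 had none. By listed gene, after Zbtb21 and Zbtb9, the members with most CCT3-2 peaks were Zbtb1 and Zbtb4 with 18 each and Zbtb39 with 17. By position Zbtb5 had 25, Zbtb21 23, Zbtb1 21 and Zbtb9 19.

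Of the CCT3 lists, only CCT3-2 named Zbtb14 (2 peaks, highest log2 fold 3.47), Zbtb48 (2, 3.22) and Zbtb2 (1, 3.90). The same held for Zbtb17, which encodes the Myc partner Miz1 (1, 3.93), and Zbtb8os (1, 2.90). The peak listed for Zbtb17 lay in Spen, and that listed for Zbtb8os lay in Zbtb8a. Of the 209 peaks, 24 had a log2 fold or a −log10 p under 3, the minimum of the other lists. The promoter class held 38 CCT3-2 peaks of the family (18.2%), in 13 members with Zbtb21 leading at 9, against 4 in the CCT3 list. The same class held 16.2% of all CCT3-2 and 0.925% of all CCT3 peaks. The CCT3 and CCT3-2 lists labelled some of the same sites differently, so these counts do not compare binding at promoters. In Zbtb21 the CCT3 peak at 97952100 to 97952179 was classed as exon 3 of 3. The CCT3-2 peak at 97952103 to 97952182 was in the promoter class.

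No peak of any list named 11 members, which were Zbtb7c, Zbtb8a, Zbtb8b, Zbtb11os1, Zbtb12, Zbtb16, Zbtb22, Zbtb26, Zbtb32, Zbtb45 and Zbtb46. By gene span the members without a peak were 8, namely Zbtb8b, Zbtb8os, Zbtb11os1, Zbtb12, Zbtb16, Zbtb17, Zbtb33 and Zbtb45. The 8 leave out Zbtb46, although its CCT3-2 peak lay on the strand opposite to the gene. Zbtb16, the spermatogonial PLZF gene, is in both groups. Such absence does not show that the RNA escapes either protein, since a scarce transcript gives few reads.

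Genes with related roles were described in the same way by gene span. Of 8 other POZ zinc finger genes, PABPC1 peaks lay in 4 (50.0%, background 24.4%), which were Gzf1, Mynn, Patz1 and Zfp131. CCT3 peaks also lay in 4 (50.0%, background 9.21%), with 10 in Hic2 (log2 folds of 3.20 to 5.85), 5 in Gzf1, 2 in Patz1 and 1 in Mynn. Of 20 genes for corepressors and partners of BTB proteins, 14 (70.0%) held PABPC1 peaks and 5 (25.0%) held CCT3 peaks, beside the same backgrounds of 24.4% and 9.21%. PABPC1 peaks were most numerous in the scaffold gene Sin3b, with 9, and in the deacetylase gene Hdac2, with 8 (highest log2 fold 6.73). CCT3 peaks were most numerous in Bcorl1, a relative of the BCL6 corepressor, with 19, all in the exon class, and in the histone demethylase gene Kdm1a, with 7 (highest 5.58).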

How the data were processed

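eCLIP peak tables of 3 samples were used, 1 for PABPC1 and 2 for CCT3. Per the submitters' processing notes bcl2fastq 2.20 and the build mm10 were used, and the aligner, peak caller, annotation tool and duplicate removal were not given in the sources used here. The deposited −log10 p values are the authors' own and stop at 400. The deposited log2 fold values are the authors' own, taken here as immunoprecipitation over input, and in the PABPC1 and CCT3-2 tables both columns are unnamed and were read from their ranges. The CCT3 table gives no strand.

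Members were matched by the listed gene symbol, and as an alternative each peak midpoint was assigned to the RefSeq gene span (GRCm38.p6) that holds it. Distances are from peak midpoints to the end of the span. Overlaps (bedtools 2.31.1) needed 1 base and ignored strand. Counts were made in Python 3.11.15 (pandas 2.3.3, numpy 2.4.6), tested on simulated data, and drawn with matplotlib 3.10.9. Members, gene lists and rules were chosen with earlier results of these data known. Planned for a fuller account were the 5 members with most peaks and the 3 with the highest folds per list, and those with peaks of both proteins. For some of these, not every peak is given with its position. Other genes were named after their values were seen. Promoter sequences are from RefSeq, whose table held 38 of the 43 members.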

Additional observations from a re-analysis of the deposited data

Results flagged for a closer look

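Some peaks lay in a Zbtb gene but named another gene, and so fell outside the counts by listed gene. In the CCT3 list 14 such peaks were in the span of Zbtb5 and listed under Grhpr, at 44991557 to 44995293 of chromosome 4, with 12 in exon 2 of 2 and 2 in the 3′ UTR and log2 folds of 3.10 to 5.06. With them Zbtb5 had 18 CCT3 peaks by position, more than Zbtb21 or Zbtb9. The CCT3-2 list had 17 peaks there under Grhpr, all on the strand of Zbtb5.

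Zbtb20, a repressor active in liver and hippocampus, was named for 1 CCT3 peak, while 7 more in its span were listed under Mir568 at 43610504 to 43619704 of chromosome 16, 6 of them in the 3′ UTR class, with log2 folds of 3.33 to 4.24. A further 4 in an intron of Zbtb20 were listed under Ndufs5-ps at 43086164 to 43089085, with log2 folds of 4.14 to 5.05. The CCT3-2 list had 11 and 4 peaks in the same places.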

How the results depend on the processing

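No paired analysis was possible because none of the values given rests on a test across samples. Of 51 alternative values for 13 results on the family, 42 stayed within 1.5 times a count or within the interval of a share. A stricter threshold took a log2 fold of at least 4 and a −log10 p of at least 5. With it members with a CCT3 peak fell from 25 to 14, and members with peaks of both proteins from 7 to 4. The shares of all protein-coding genes at this threshold are not given here. PABPC1 peaks fell from 24 to 9 (37.5%, beside 49.5% of all PABPC1 peaks). CCT3 peaks fell from 130 to 63 (48.5%, beside 41.9% of all CCT3 peaks). The share of the family's CCT3 peaks overlapping CCT3-2 was 85.7%. At 50% reciprocal overlap that share was 80.8%, and the overlap of the proteins in Zbtb9 was lost, leaving 0. With the CCT3-2 list in place of CCT3 the family had 209 peaks, 56.5% of them in other exons. The CCT3 and CCT3-2 lists labelled some of the same sites as exon and as promoter, so this share also depends on the labels. Alternatives chosen after seeing the data, CCT3-2 peaks at 3 or more (185 peaks, 26 members) and PABPC1 peaks without the opposite strand (21 peaks, 8 members), moved no count by over 1.5 times. Of 95 alternative values for single genes, 45 moved by more. Read depth limits which genes can show a peak and is unknown here.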

Other observations

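The pentamer GGCGG, chosen after the start sequences were seen, occurs 5 times with overlaps in the printed Zbtb34 stretch, 2 times in that of Zbtb43 and not in those of Zbtb21 and Zbtb49. Searched on both strands at transcript positions 21 to 50, it was present in 12.6% of 32851 RefSeq promoter entries and in 13 of 51 Zbtb entries (25.5%). The 51 entries are of 38 genes, Zbtb34 and Zbtb43 among them. The pentamer was seen in these sequences first, so the Zbtb share is not an independent count. These matches describe letters in a window and were not related to the peaks by a test.

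Zbtb22, which no list named, had 3 CCT3 peaks by position, at 33917687 to 33918506 of chromosome 17 under Tapbp, with log2 folds of 3.45 to 3.67, and 7 CCT3-2 peaks. Zbtb46, known from classical dendritic cells, had 1 CCT3 peak by position, listed under Lime1, with a log2 fold of 3.13. The CCT3 table gives no strand. The CCT3-2 peak overlapping it, also listed under Lime1, lay on the strand opposite to Zbtb46, so the site may not belong to Zbtb46 RNA.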
